A study of Homo sapiens
Mus musculus and Homo sapiens and Mus musculus with 7 samples.

Results

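Human RNA that came along in V5 immunoprecipitates (IPs) of a human and mouse co-culture was compared with human RNA in the unselected co-culture. The comparison uses 3 of the 7 libraries of the series, namely 2 V5 IPs and 1 co-culture input, and takes the genes placed on human chromosomes, 58721 of 113473 gene identifiers. Counts of each library were scaled to its own human counts and are given as human CPM, the counts of a gene per 1000000 human counts. In the co-culture, HEK293 cells, a line from human embryonic kidney, expressed HA-tagged RPL22, a protein of the large ribosomal subunit, and NIH3T3 cells, mouse fibroblasts, expressed V5-tagged RPL22. All co-culture libraries, the input included, come from this mixture, so the human RNA in a V5 IP comes from cells whose tag was not the one pulled down. The first V5 IP was made from lysate 1 and the second from lysate 4, and how the lysates relate to each other and to the input is not given in the labels. A pair of HA IPs (lysate 1 and lysate 5), a HEK293 monoculture and an NIH3T3 monoculture serve as background. Whether the monocultures carried a tag is not given in the labels.

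Epitope-tagged ribosomal proteins are used to recover the RNA bound to ribosomes of one cell population out of a mixture. An antibody against the tag pulls down ribosomes with the messenger RNA they translate, and in any such IP some RNA of untagged origin is recovered as well. Messenger RNA on cytosolic ribosomes, mitochondrial transcripts, which are translated by separate ribosomes inside mitochondria, and non-coding RNA held in the nucleus differ in whether a tagged cytosolic ribosome carries them.

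Human genes received 128915 and 81798 counts in the first and second V5 IPs, against 280163 in the input. All gene counts of both species together came to 2063885 and 1826127 in the V5 IPs, against 1039864 in the input. The human share was therefore 6.25% in the first V5 IP (exact Clopper-Pearson 95% interval 6.21 to 6.28%) and 4.48% in the second (4.45 to 4.51%), against 26.9% in the input (26.9 to 27.0%). Both V5 IPs lay below the input, with a mean of 5.36% ± 1.25 (SD, n = 2). In such shares, fewer cells of a type and less RNA per cell cannot be told apart. The HA IPs held 79.9% ± 3.22 human counts (SD, n = 2) and HEK293 cells alone 99.99%. Intervals cover counting error only, since no molecular identifiers were counted.

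The libraries were checked against marker genes of both lines. Of 15 fibroblast-associated human genes, 1 (VIM) had enough counts to be tested. COL1A2, COL3A1, PDGFRA, PDGFRB, THY1, DCN, POSTN and FBN1 had 0 human counts in every library. The summed level of this list was 303 and 48.9 human CPM in the V5 IPs, against 46.4 in the input, 97.3 and 51.1 in the HA IPs and 110 in HEK293 cells. Most of it was VIM, at 287 and 36.7 in the V5 IPs (37 and 3 counts), against 39.3 in the input. COL1A1 (0 and 1 counts in the V5 IPs) and SPARC (2 and 0) also had 4 and 1 counts in the NIH3T3 monoculture. Of 8 HEK293-associated genes, KRT18 and NEFL were tested, PAX2 had 1 and 2 counts in the HA IPs, 1 in HEK293 cells and 0 in the V5 IPs and the input, and LHX1 and NEFM were at 0 throughout. The summed level of those 8 genes was 85.3 and 73.4 human CPM in the V5 IPs, against 182 in the input. It was 248 and 188 in the HA IPs and 305 in HEK293 cells. The first V5 sum was NEFL alone (11 counts), and most of the second was KRT18 (4 counts). NEFL stood at 85.3 and 12.2 human CPM in the V5 IPs, against 39.3 in the input, and KRT18 at 0 and 48.9, against 136. Their log2 differences from the input ran opposite ways, at 0.41 for NEFL and -2.71 for KRT18, and neither was called.

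One library stood apart in base composition. The co-culture input held less of the AT-rich and more of the GC-rich transcripts than the other libraries with human RNA. Among 2162 genes with at least 50 human CPM on average over the V5 IPs and the input, the median log2 ratio of HEK293 cells over the input was 1.51 in the quintile of genes with the lowest GC content and -1.11 in that with the highest. For the first and second HA IPs over the input it was 1.55 and 1.20 in the lowest and -0.55 and -0.44 in the highest. The input enters every difference given against it, so values in the HA IPs and in HEK293 cells are given beside most of them.

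Of 6244 human genes tested, 85 rose in the V5 IPs against the input (1.36%) and 20 fell (0.32%), by edgeR's quasi-likelihood test with a Benjamini-Hochberg adjusted p under 0.05. The median log2 difference over all 6244 genes was 0.53, and it was 0.21 among the 2162 genes with at least 50 human CPM and 0.83 among the rest. With TMM factors, which set that shift to near 0, 16 genes rose and 31 fell. The share of higher genes among the calls was then 34.0%, against 81.0% without the factors. All 16 of those higher genes were among the 85, and 18 of the 20 lower genes were called with both scalings. The spread rested on the 2 V5 and 2 HA IPs, with a biological coefficient of variation of 53.7% and 2 residual degrees of freedom. The single input and HEK293 libraries were assumed to vary like the IPs. Nothing in the labels says that the first and second IPs came from separate cultures, so the p-values measure the spread between these libraries, which may be technical. Without the first V5 IP 1 gene was called (TRIP11) and without the second 0, by edgeR, with 1042 and 1132 genes at an unadjusted p under 0.05. Without the first HA IP 39 genes were called, and without the second 42.

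**Figure D1:**
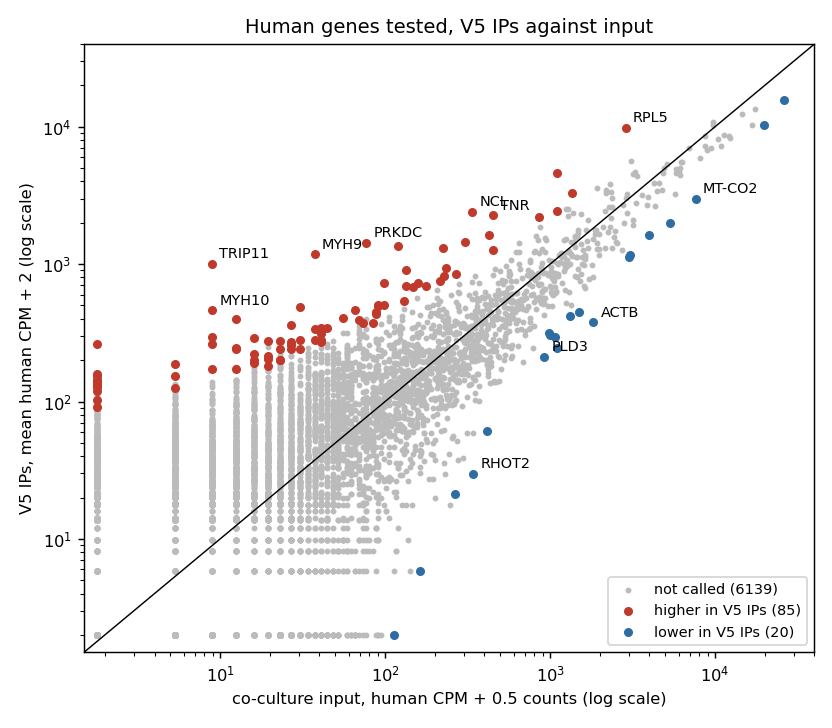
Mean level in the 2 V5 IPs (human CPM + 2, log scale, vertical axis) against the level in the co-culture input (human CPM + 0.5 counts, log scale, horizontal axis) for 6244 human genes, with the 85 genes called higher in red and the 20 called lower in blue. The line marks equal levels, and both sets of called genes lie away from it, the higher ones reaching down to 0 input counts in 11 of the 85.

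Of the 85 higher genes, 11 had 0 input counts, 12 had 1 to 3 and 45 had at most 10. At most 10 input counts were found in 52.9% of the 85 and in 65.1% of all 6244 genes tested. HEK293 cells had a higher level than the input in 83 of the 85, against 62.0% of all genes tested, and both HA IPs did in 82, against 52.1%. Both V5 IPs exceeded HEK293 cells in 51 of the 85, against 23.7% of all genes, and were both below them in 12, against 32.9%. In 34 of the 85 both V5 IPs exceeded every other library with human RNA, against 611 of all 6244 genes tested (9.79%). The 85 were chosen for being high in the V5 IPs and low in the input, so these shares are a description. All but 1 of them (CIT) would have passed the filter on low counts without the V5 IPs. Of all 6244 genes tested, 965 passed it only through the V5 IPs and 200 only through the input. The shares and medians over all genes therefore include genes that entered by being high in the V5 IPs.

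The genes with the widest gaps included the large structural and scaffold proteins TRIP11, MYH10 and MYH9. TRIP11 (ENSG00000100815.12, hg38 chromosome 14, 91965991 to 92040896) encodes GMAP210, a Golgi tether. MYH9 (ENSG00000100345.21, chromosome 22, 36281277 to 36388067) and MYH10 (ENSG00000133026.12, chromosome 17, 8474205 to 8630761) encode the heavy chains of non-muscle myosins IIA and IIB, the motors of contractile actin bundles. DDX18 (ENSG00000088205.12, chromosome 2, 117814650 to 117832379) encodes a nucleolar RNA helicase that acts in ribosome assembly. The letters below are 90 coding bases of each, read 5′ to 3′ from the longest coding transcript in GENCODE 29, chosen as the in-frame stretch whose GC content came closest to that of the whole coding sequence. They show how base composition differs among genes that rose, and capitals mark G and C.
TRIP11: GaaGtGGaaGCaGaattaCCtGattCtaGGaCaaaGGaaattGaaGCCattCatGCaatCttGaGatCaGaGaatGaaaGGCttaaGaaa
DDX18: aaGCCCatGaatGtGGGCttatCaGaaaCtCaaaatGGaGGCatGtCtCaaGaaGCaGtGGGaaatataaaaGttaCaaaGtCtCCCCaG
MYH10: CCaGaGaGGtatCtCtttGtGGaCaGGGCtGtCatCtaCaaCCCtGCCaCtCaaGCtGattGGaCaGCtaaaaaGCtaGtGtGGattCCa
MYH9: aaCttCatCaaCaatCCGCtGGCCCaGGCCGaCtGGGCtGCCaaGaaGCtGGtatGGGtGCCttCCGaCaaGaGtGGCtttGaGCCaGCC
G and C made up 37.7% of the coding sequence of TRIP11, 41.8% of DDX18, 49.4% of MYH10 and 59.2% of MYH9.

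TRIP11 stood at 450 and 1553 human CPM in the V5 IPs, against 7.14 in the input. It stood at 94.6 and 68.4 in the HA IPs and 31.5 in HEK293 cells. Both V5 IPs were above every other library, and the second was 3.45 times the first. The fitted log2 difference from the input was 7.07 ± 0.91 (SE), with an edgeR adjusted p of 4.5e-11. With 2 counts in the input, the ratio of the pooled V5 counts was 123 with a counting interval of 33.6 to 1023. That interval leaves out the spread between the V5 IPs. TRIP11 was still called with TMM factors (edgeR adjusted p = 9.7e-06) and without the first V5 IP (0.0133), but not without the second (0.148).

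MYH9 stood at 2032 and 330 human CPM in the V5 IPs, against 35.7 in the input, 107 and 5.77 in the HA IPs and 21.8 in HEK293 cells. The V5 IPs differed 6.16-fold from each other, and the lower of them was above all other libraries. The log2 difference from the input was 5.06 ± 0.72 (SE; edgeR adjusted p = 5.3e-09). MYH10 stood at 590 and 330 human CPM in the V5 IPs, against 7.14 in the input (2 counts), 85.0 and 14.0 in the HA IPs and 38.7 in HEK293 cells, a ratio to the input of 68.5 with a counting interval of 18.5 to 573. Its log2 difference was 5.97 ± 1.11 (SE; edgeR adjusted p = 3.8e-05), and again neither V5 IP overlapped with another library. Leaving out the first V5 IP ended both calls (edgeR adjusted p = 0.343 for MYH9 and 0.151 for MYH10), as did leaving out the second (0.165 for both). Scaled to all counts of both species, MYH9 still stood at 127 and 14.8 counts per 1000000 in the V5 IPs, against 9.62 in the input.

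Among the 17 cytoskeletal motors and large scaffolds listed, 16 were tested. Of these, 2 rose (MYH9 and MYH10) and 0 fell, against 1.36% and 0.32% of all genes, and 14 were not called. The list's median log2 difference was 1.89, against 0.53 over all genes. Filamin A (FLNA), an actin crosslinker, stood at 7.76 and 12.2 human CPM in the V5 IPs (1 count each), against 24.99 in the input (7 counts), 17.8 and 5.77 in the HA IPs and 16.9 in HEK293 cells. Dynein heavy chain (DYNC1H1), a microtubule motor, stood at 101 and 0 human CPM in the V5 IPs, against 28.6 in the input, 31.5 and 14.0 in the HA IPs and 68.95 in HEK293 cells. The summed level of the list was 3211 and 941 human CPM in the V5 IPs, against 214 in the input, 470 and 193 in the HA IPs and 438 in HEK293 cells. Most of the V5 sum was MYH9 and MYH10. Without these 2 genes it was 590 and 281 in the V5 IPs, against 171 in the input, 278 and 173 in the HA IPs and 377 in HEK293 cells, which lay between the V5 values.

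PRKDC, the catalytic subunit of DNA-dependent protein kinase in double-strand break repair, stood at 1963 and 892 human CPM in the V5 IPs, against 74.96 in the input, 310 and 61.8 in the HA IPs and 197 in HEK293 cells. Both V5 IPs were above all the others, with a log2 difference from the input of 4.25 ± 0.61 (SE; edgeR adjusted p = 6.0e-09). PRKDC lost its call when the first V5 IP was left out (edgeR adjusted p = 0.160), and likewise the second (0.165). CIT, citron kinase, which acts in cell division (ENSG00000122966.15, chromosome 12, 119685790 to 119877291), had 4 and 40 counts in the V5 IPs, against 0 in the input, 1 and 4 in the HA IPs and 4 in HEK293 cells. That is 31.0 and 489 human CPM in the V5 IPs, a 15.8-fold gap between them, and the first V5 IP rests on 4 counts. CIT passed the filter on low counts through the V5 IPs alone, where it was high, so its calls against the input, the HA IPs and HEK293 cells are given no test value here. PRKDC was chosen after its values were seen. The NIH3T3 monoculture had 0 counts on TRIP11, MYH9, MYH10, PRKDC and CIT.

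**Figure D2:**
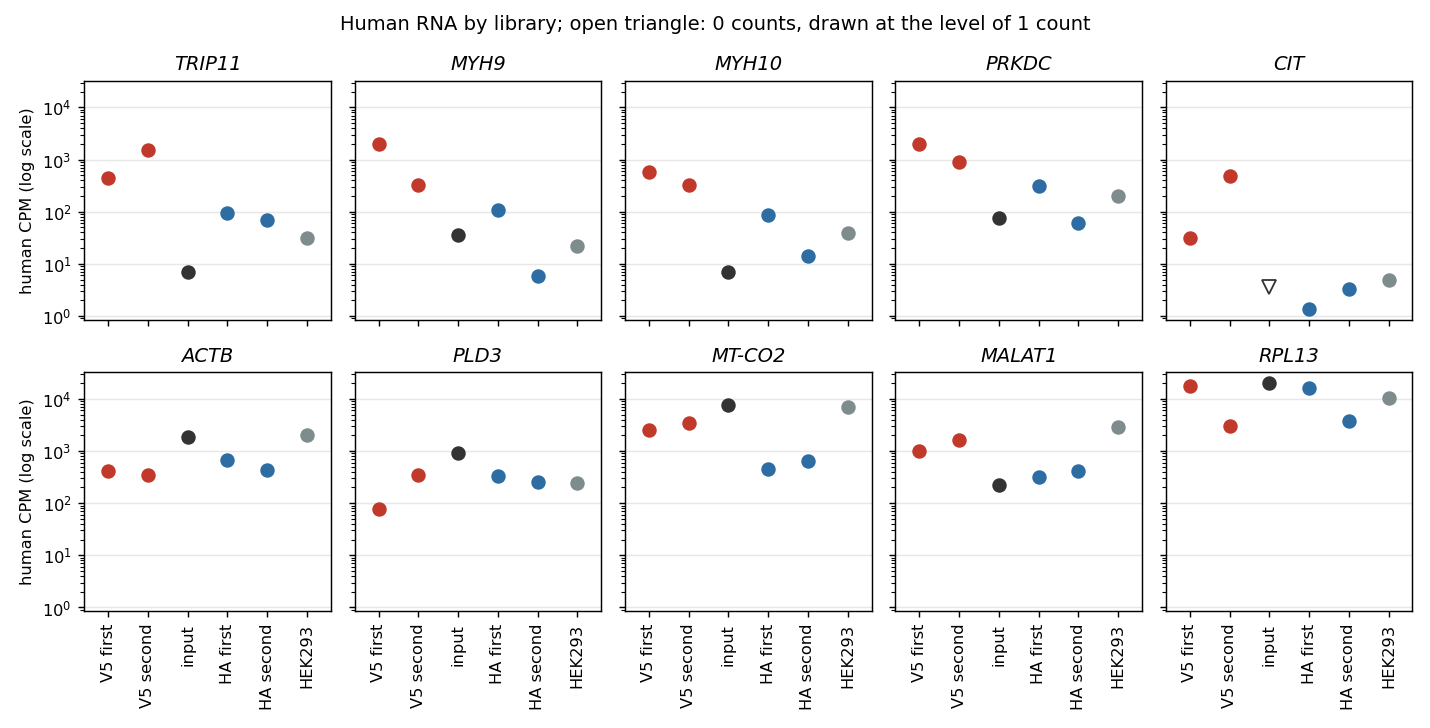
Human CPM (log scale) of 10 genes in the first and second V5 IPs (red), the co-culture input (black), the first and second HA IPs (blue) and the HEK293 monoculture (grey), 1 point per library. For TRIP11, MYH9, MYH10, PRKDC and CIT both V5 points lie above all others, while for ACTB they lie below the input and HEK293 points. CIT passed the filter on low counts through the V5 IPs alone, and its first V5 point rests on 4 counts.

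The other genes with the largest fitted differences had 0 input counts and few counts in the V5 IPs. SNW1, a spliceosome and transcription cofactor, had 23 and 11 counts in the V5 IPs, against 0 in the input, and was at least 15.1-fold higher than a floor of 3 input counts (edgeR adjusted p = 0.0024). Its level of 178 and 134 human CPM in the V5 IPs overlapped with the 158 and 75.8 of the HA IPs, and HEK293 cells had 89.5. NUP205, a scaffold protein of the nuclear pore, had 25 and 9 counts, against 0 in the input, and was likewise at least 15.1-fold higher (edgeR adjusted p = 0.019), at 194 and 110 human CPM in the V5 IPs, against 53.4 and 4.12 in the HA IPs and 21.8 in HEK293 cells. DDX50, USP15, PGRMC1, USP34, FXR1, MPHOSPH8 and PBK had between 5 and 19 counts in each V5 IP, against 0 in the input, bounds of 10.2- to 13.3-fold and edgeR adjusted p between 0.0062 and 0.048. Of these genes, NUP205, DDX50, USP15, USP34, FXR1, MPHOSPH8 and PBK were higher in both V5 IPs than in every other library. The same held for 9.79% of all genes tested. For PBK the second V5 IP, at 61.1 human CPM (5 counts), barely exceeded the 60.5 of HEK293 cells. PGRMC1, a haem-binding membrane protein, at 132 and 134 human CPM lay between its 200 and 46.2 in the HA IPs, with 56.9 in HEK293 cells. These genes with 0 input counts passed the filter on low counts through libraries other than the input.

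DDX18 stood at 481 and 306 human CPM in the V5 IPs, against 10.7 in the input, 218 and 184 in the HA IPs and 221 in HEK293 cells. With 3 input counts its ratio was 38.6, with a counting interval of 12.8 to 191 (edgeR adjusted p = 2.4e-05). NOP58, a core protein of box C/D small nucleolar ribonucleoproteins, stood at 334 and 257 in the V5 IPs, against 7.14 in the input, 163 and 87.4 in the HA IPs and 254 in HEK293 cells (edgeR adjusted p = 0.00027). Nucleolin (NCL), an abundant nucleolar RNA-binding protein, stood at 2645 and 2164 in the V5 IPs, against 336 in the input, 1481 and 996 in the HA IPs and 1334 in HEK293 cells. Its log2 difference from the input was 2.84 ± 0.42 (SE; edgeR adjusted p = 2.6e-08), and its difference from the HA IPs, 0.96 ± 0.30, was not called (edgeR adjusted p = 0.136). DNA topoisomerase I (TOP1) and the cohesin subunits SMC1A and SMC3 were also above every other library in both V5 IPs, at 489 and 232 human CPM for TOP1, against 24.99 in the input, 197 and 134 in the HA IPs and 167 in HEK293 cells.

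Genes of protein synthesis and folding moved in part. Of 31 translation initiation and elongation factors tested, 6 rose (EIF5B, EIF3E, EIF2S2, EIF3M, EIF5 and EIF1AX) and 0 fell, against 1.36% and 0.32% of all genes, with a median log2 difference of 1.20, against 0.53 over all genes. Against the HA IPs the median of the list was 0.20 and that of all genes -0.00. EIF2S2, the beta subunit of the factor that brings initiator tRNA, stood at 768 and 697 human CPM in the V5 IPs, against 96.4 in the input, 903 and 976 in the HA IPs and 368 in HEK293 cells (log2 difference 2.92 ± 0.56 SE, edgeR adjusted p = 6.7e-05). The V5 values lay between those of HEK293 cells and of the HA IPs. EIF5B, which joins the ribosomal subunits, had 17 and 32 counts in the V5 IPs, against 2 in the input, a ratio of 32.6 with an interval of 8.55 to 276 (edgeR adjusted p = 0.0025). That is 132 and 391 human CPM in the V5 IPs, against 7.14 in the input, 89.1 and 93.1 in the HA IPs and 168 in HEK293 cells, and the last lay between the V5 values.

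Of 20 chaperones tested, 4 rose (HSP90AA1, HSP90AB1, CCT8 and CCT6A) and 0 fell, against 1.36% and 0.32% of all genes. The median log2 difference was 1.29, against 0.53 over all genes, but it was near 0 against the HA IPs (0.0047). HSP90AA1, the inducible cytosolic HSP90, stood at 1148 and 1540 human CPM in the V5 IPs, against 118 in the input, 1211 and 701 in the HA IPs and 965 in HEK293 cells. Its log2 difference from the input was 3.51 ± 0.50 (SE; edgeR adjusted p = 6.0e-09), and the V5 and HA values overlapped. Of 26 chaperones and translocon parts of the endoplasmic reticulum, 2 rose, against 1.36% of all genes. They were HSP90B1, the HSP90 of that compartment, and SEC62, a translocon subunit. SEC62 stood at 256 and 232 human CPM in the V5 IPs, against 10.7 in the input (3 counts, ratio 23.1 with an interval of 7.46 to 115), 223 and 209 in the HA IPs and 258 in HEK293 cells. The input was the library that differed in SEC62, and all the others lay within 209 to 258. Of 31 splicing factors and hnRNPs tested, 3 rose (SNW1, U2SURP and HNRNPR), against 1.36% of all genes, and 0 fell. Their median was 1.10 against the input and -0.11 against the HA IPs. U2SURP, a spliceosomal protein, stood at 240 and 97.8 human CPM in the V5 IPs, against 10.7 in the input, 243 and 148 in the HA IPs and 264 in HEK293 cells. HNRNPR, an RNA-binding protein, stood at 194 and 208 in the V5 IPs, against 17.8 in the input, 259 and 193 in the HA IPs and 232 in HEK293 cells. The input was again the low library for both.

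The 76 cytosolic ribosomal protein genes, all tested, made up 28.5% and 28.2% of human counts in the V5 IPs, against 30.7% in the input, 25.1% and 28.4% in the HA IPs and 27.1% in HEK293 cells. Their median log2 difference was -0.00, against 0.53 over all genes. There were 4 that rose (RPL5, RPL7, RPL6 and RPS27A), 1 that fell (RPL13) and 71 that were not called. Over all genes tested, 1.36% rose and 0.32% fell. RPL5, which carries 5S rRNA into the large subunit, stood at 9921 and 9682 human CPM in the V5 IPs, against 2870 in the input, 5767 and 4740 in the HA IPs and 9253 in HEK293 cells. Its log2 difference from the input was 1.77 ± 0.28 (SE; edgeR adjusted p = 1.5e-07), but it was not called with TMM factors (0.248). RPL13 stood at 17469 and 3007 human CPM in the V5 IPs, against 19881 in the input, 15935 and 3706 in the HA IPs and 10433 in HEK293 cells. It fell by 0.95 ± 0.22 on the log2 scale (SE; edgeR adjusted p = 0.0031), yet the first V5 IP was near the input, the second was low together with the second HA IP, and RPL13 was not called with TMM factors (0.061). Without the second V5 IP its edgeR adjusted p was 0.932. Ribosomal protein genes have many processed pseudogenes, so the counting could split their reads, and these values are uncertain to that extent.

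The human RNAs most abundant in the V5 IPs were the mitochondrial 16S rRNA MT-RNR2 and messenger RNAs of ribosomal proteins. RPS19 stood at 12970 and 13717 human CPM in the V5 IPs, against 17351 in the input, 10970 and 16977 in the HA IPs and 10152 in HEK293 cells. RPS15 stood at 11131 and 13595 in the V5 IPs, against 14606 in the input, 13559 and 20300 in the HA IPs and 7305 in HEK293 cells. RPL36 stood at 9882 and 11846 in the V5 IPs, against 9748 in the input, 6455 and 11586 in the HA IPs and 5597 in HEK293 cells. RPS18 stood at 10588 and 9854 in the V5 IPs, against 9712 in the input, 5955 and 7365 in the HA IPs and 8411 in HEK293 cells. None of these nuclear genes was called against the input, and their 2 V5 values differed by 1.06- to 1.22-fold. RPL22, the endogenous gene of the tagged protein, stood at 194 and 465 human CPM in the V5 IPs, against 118 in the input, 230 and 184 in the HA IPs and 88.3 in HEK293 cells (edgeR adjusted p = 0.365). Its paralogue RPL22L1 stood at 264 and 318 in the V5 IPs, against 157 in the input, 207 and 174 in the HA IPs and 265 in HEK293 cells (edgeR adjusted p = 0.571).

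Genes that fell included actins and a set of GC-rich messenger RNAs. RHOT2 (ENSG00000140983.13, chromosome 16, 668086 to 674174) encodes the mitochondrial GTPase Miro2, PLD3 (ENSG00000105223.19, chromosome 19, 40348456 to 40380439) a lysosomal nuclease, and ACTB (ENSG00000075624.14, chromosome 7, 5527147 to 5563784) beta-actin. Their 90 coding bases were chosen in the same way, with G and C in capitals, and are set against those of the higher genes.
RHOT2: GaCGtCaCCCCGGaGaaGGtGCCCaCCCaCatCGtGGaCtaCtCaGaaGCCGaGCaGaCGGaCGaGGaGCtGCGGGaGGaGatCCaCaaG
PLD3: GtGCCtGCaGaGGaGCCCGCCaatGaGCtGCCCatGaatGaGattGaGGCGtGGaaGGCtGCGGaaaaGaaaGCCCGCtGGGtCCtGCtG
ACTB: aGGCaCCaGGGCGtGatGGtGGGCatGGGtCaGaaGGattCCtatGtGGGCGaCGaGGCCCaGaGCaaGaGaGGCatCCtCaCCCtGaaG
G and C made up 63.9% of the coding sequence of RHOT2, 61.6% of PLD3 and 60.6% of ACTB.

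ACTB stood at 411 and 342 human CPM in the V5 IPs, against 1828 in the input. It stood at 673 and 435 in the HA IPs and 2009 in HEK293 cells. Both V5 values were the lowest of all, and the log2 difference from the input was -2.27 ± 0.40 (SE; edgeR adjusted p = 1.2e-05). ACTB was also called with TMM factors (edgeR adjusted p = 0.00035) and after removal of the GC trend (0.0063), but not without the first V5 IP (0.116) or the second (0.165). Of 11 actin and tubulin genes tested, 3 fell (ACTB, ACTG1 and TUBG1) and 0 rose, against 0.32% and 1.36% of all genes. The list's median log2 difference was -1.40, against 0.53 over all genes. Against the HA IPs the list's median was -0.11, with 0 genes called. TUBG1 stood at 427 and 183 human CPM in the V5 IPs, against 999 in the input, 349 and 389 in the HA IPs and 573 in HEK293 cells. ACTG1, gamma-actin, stood at 1311 and 941 human CPM in the V5 IPs, against 2988 in the input, 1161 and 734 in the HA IPs and 1782 in HEK293 cells. ACTB and ACTG1 have similar coding sequences, so some of their reads may be split.

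RHOT2 stood at 31.0 and 24.5 human CPM in the V5 IPs, against 339 in the input, 85.0 and 65.9 in the HA IPs and 85.9 in HEK293 cells. Its log2 difference was -3.58 ± 0.94 (SE; edgeR adjusted p = 0.015). PLD3 stood at 77.6 and 342 in the V5 IPs, against 921 in the input and 246 in HEK293 cells, and its V5 values overlapped with the 332 and 256 of the HA IPs (edgeR adjusted p = 0.0085). GRN, the growth factor progranulin, stood at 287 and 196 in the V5 IPs, against 1092 in the input, 375 and 264 in the HA IPs and 310 in HEK293 cells (edgeR adjusted p = 0.0049). Here too the input was the high library. C1orf159 had 0 counts in both V5 IPs, against 31 in the input, 32 and 65 in the HA IPs and 17 in HEK293 cells (edgeR adjusted p = 0.045 against the input). TOM1, an endosomal sorting protein, had 1 and 0 counts in the V5 IPs, against 45 in the input, 44 and 49 in the HA IPs and 62 in HEK293 cells (edgeR adjusted p = 0.038). Among the 20 genes that fell, 16 had both V5 IPs below HEK293 cells, against 32.9% of all genes tested. Both V5 IPs were below both HA IPs in 6 of the 20, against 25.7% of all genes, and above both in 6, against 15.04%.

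Mitochondrially encoded RNA made up 2.28% of human counts in the first V5 IP (95% interval 2.20 to 2.36%) and 3.54% in the second (3.41 to 3.66%), against 5.58% in the input (5.49 to 5.66%). The share was 0.354% and 0.466% in the HA IPs and 8.35% in HEK293 cells. The V5 IPs averaged 2.91% ± 0.89 (SD, n = 2), a difference of -2.67 points from the input, and lay above both HA IPs. Messenger RNA alone made up 1.30% ± 0.43 in the V5 IPs (SD, n = 2), against 2.82% in the input and 0.199% ± 0.046 in the HA IPs (SD, n = 2).

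**Figure D3:**
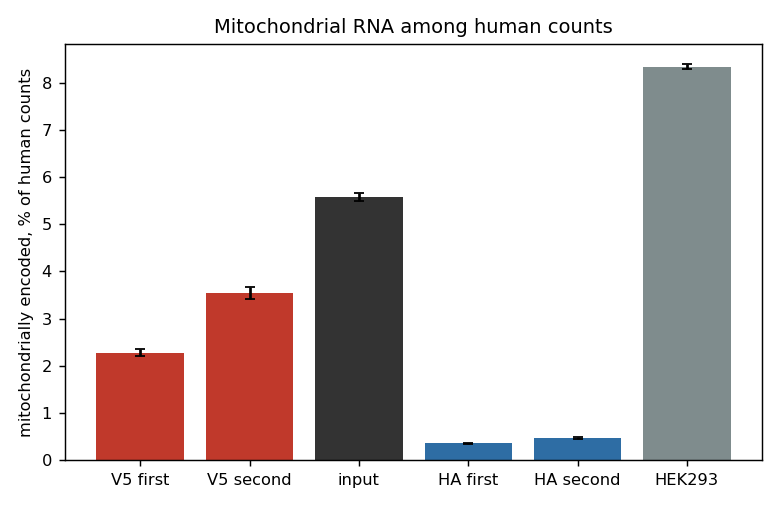
Mitochondrially encoded RNA as a percentage of human counts in the V5 IPs, the co-culture input, the HA IPs and the HEK293 monoculture, 1 bar per library, with exact Clopper-Pearson 95% intervals that cover counting error. The V5 bars, at 2.28% and 3.54%, stand between the input at 5.58% and the HA bars at 0.354% and 0.466%.

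All 13 mitochondrial messenger RNAs were lower in both V5 IPs than in the input, with a median log2 difference of -1.29 against 0.53 over all genes. There were 3 that fell by the test, MT-ND1 and MT-CYB, subunits of respiratory complexes I and III, and MT-CO2, a subunit of complex IV. Over all genes tested, 0.32% fell. MT-CO2 stood at 2552 and 3435 human CPM in the V5 IPs, against 7631 in the input, 460 and 637 in the HA IPs and 6966 in HEK293 cells. The groups did not overlap, with log2 differences of -1.35 ± 0.28 from the input (SE; edgeR adjusted p = 0.00062) and 2.44 ± 0.25 from the HA IPs (SE; edgeR adjusted p = 1.0e-18). The 16S rRNA MT-RNR2 stood at 12163 and 18912 human CPM in the V5 IPs, against 26074 in the input, 1810 and 2291 in the HA IPs and 51272 in HEK293 cells (log2 difference from the input -0.75 ± 0.20 SE, edgeR adjusted p = 0.017, and 0.108 with TMM factors). The 12S rRNA MT-RNR1 stood at 543 and 342 in the V5 IPs, against 1492 in the input, 46.6 and 37.9 in the HA IPs and 2279 in HEK293 cells (log2 difference from the input -1.74 ± 0.42 SE, edgeR adjusted p = 0.0064). Of 39 nuclear-encoded respiratory chain genes, which are translated in the cytosol, edgeR called 0 in either direction (4 at an unadjusted p under 0.05, and 0 by DESeq2), with a median of -0.14. Both V5 IPs were below the input in 14 of the 39, against 1704 of all 6244 genes (27.3%), and above it in 9, against 1889 (30.3%). COX4I1, a complex IV subunit of that group, stood at 1714 and 1846 human CPM in the V5 IPs, against 1870 in the input, 1780 and 1790 in the HA IPs and 1773 in HEK293 cells.

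Of 10 non-coding RNAs, most of them known to stay in the nucleus, 4 could be tested and 1 rose, against 1.36% of all genes. It was MALAT1 (ENSG00000251562.8, chromosome 11, 65497688 to 65506516), a long RNA of nuclear speckles. MALAT1 stood at 1001 and 1602 human CPM in the V5 IPs, against 221 in the input, 311 and 423 in the HA IPs and 2906 in HEK293 cells. Both V5 IPs were above the input and both HA IPs, and below HEK293 cells. The log2 difference was 2.55 ± 0.46 from the input (SE; edgeR adjusted p = 1.6e-05) and 1.82 ± 0.33 from the HA IPs (SE; edgeR adjusted p = 1.4e-05). Against the input MALAT1 was not called with TMM factors (0.0927), after removal of the GC trend (0.311) or without either V5 IP (0.116 without the first and 0.165 without the second). NEAT1, the RNA core of paraspeckles, had 1 count in each V5 IP, against 8 in the input, 1 and 5 in the HA IPs and 25 in HEK293 cells. NORAD, a mainly cytoplasmic member of the list, had 6 and 1 counts in the V5 IPs, against 2 in the input, 1 and 3 in the HA IPs and 11 in HEK293 cells. Of 13 snoRNA host genes tested, whose introns hold small nucleolar RNAs, edgeR called 0 (0 at an unadjusted p under 0.05, and 0 by DESeq2), with a median of 0.04.

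The remaining lists held few calls. By edgeR and by DESeq2, 0 genes passed among 13 of glycolysis (median -0.15), 25 of DNA replication (median 0.20) and 18 of membrane and secretory pathway proteins (median 0.81), with 3, 3 and 2 at an unadjusted edgeR p under 0.05. Of 10 replication-dependent histone genes tested, 1 fell, against 0.32% of all genes. It was HIST1H1C, a linker histone. HIST1H1C stood at 295 and 330 human CPM in the V5 IPs, against 982 in the input (edgeR adjusted p = 0.041), 432 and 603 in the HA IPs and 417 in HEK293 cells. GAPDH, a glycolytic enzyme, stood at 9084 and 7885 human CPM in the V5 IPs, against 12072 in the input, 7134 and 6745 in the HA IPs and 6953 in HEK293 cells (edgeR adjusted p = 0.331). By gene type, protein-coding genes made up 96.5% and 95.4% of human counts in the V5 IPs, against 94.95% in the input and 97.9% and 97.4% in the HA IPs.

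The HA IPs recover human RNA through its own tag, and setting the V5 IPs against them leaves the input out. In that comparison 36 of 6244 genes rose in the V5 IPs (0.577%) and 2 fell (0.032%), with a median log2 difference of -0.00. The comparison shares its V5 libraries with the one against the input. Of the 36, 12 were mitochondrially encoded, out of 17 such genes tested. Of the other 24, INTS1, STOX2, IFFO1, ONECUT2 and CIT passed the filter on low counts through the V5 IPs alone. MYH9, TRIP11, MYH10 and PRKDC were also among the 24, with log2 differences of 4.45, 3.61, 3.25 and 2.96. TNR, on which 67.9% of the V5 counts were expected from mouse reads, had a log2 difference of 5.93 and one of 5.601 ± 0.58 (SE; edgeR adjusted p = 1.1e-18) after these were subtracted. The HA IPs also held more TNR counts than expected from mouse reads (20 and 55, with 12.7 and 28.0 expected). The subtraction may therefore leave mouse reads behind, which was not tested. NUP160, a nuclear pore scaffold protein, was among the 24, at 38.8 and 220 human CPM in the V5 IPs, against 8.22 and 2.47 in the HA IPs, 7.14 in the input and 32.7 in HEK293 cells. MALAT1, DNMT1 (the maintenance DNA methyltransferase), FTL (ferritin light chain), RPSA, RPS2, RPL3, RPL5, EEF2 and EEF1A1 also rose, by 0.90 to 2.11 on the log2 scale.

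The 2 genes that fell against the HA IPs were BCAR1 and CCDC124. BCAR1, the adhesion adaptor p130Cas, had 1 and 0 counts in the V5 IPs, against 158 and 221 in the HA IPs (edgeR adjusted p = 0.0047), with 3 in the input and 3 in HEK293 cells. It was thus scarce in every library without HA pull-down. CCDC124, a ribosome-binding protein, stood at 822 and 782 human CPM in the V5 IPs, against 1835 and 1927 in the HA IPs (edgeR adjusted p = 0.016), 1817 in the input and 825 in HEK293 cells. Leaving out an IP moved the 38 calls to between 7, without the second V5 IP, and 27, without the first HA IP, with 14 without the first V5 IP and 22 without the second HA IP.

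Against the HEK293 monoculture in place of the input, 12 genes rose in the V5 IPs (0.192%) and 17 fell (0.272%). Those that rose were MYH9, TRIP11, MIF, MYH10, NME2, PRKDC, TRIM28, UQCC3, AC007969.1 and RPL36, with CIT, which passed the filter through the V5 IPs alone, and TNR, which carried mouse reads. Of those that fell 8 were mitochondrially encoded. The log2 difference of TNR from HEK293 cells was 8.24, and it was 6.76 ± 0.87 (SE; edgeR adjusted p = 1.4e-11) with the expected mouse reads subtracted. Here too the subtraction may leave mouse reads behind. MYH9 had a log2 difference of 5.76 ± 0.72 from HEK293 cells (SE; edgeR adjusted p = 2.1e-12), TRIP11 4.97 ± 0.72 (SE; edgeR adjusted p = 8.0e-09) and MYH10 3.57 ± 0.85 (SE; edgeR adjusted p = 0.010). MIF, an inflammatory cytokine, stood at 240 and 355 human CPM in the V5 IPs, against 14.5 in HEK293 cells, but at 357 in the input and 366 and 536 in the HA IPs. ACTB fell against HEK293 cells as it did against the input, by 2.41 on the log2 scale (edgeR adjusted p = 1.7e-06).

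The direction of a gene against the input went with its base composition. The 85 genes that rose had a median GC content of 41.2% in their longest transcript, and 81 of them were under 50%. MYH9, CIT, NACA and DNMT1 were over it. Of the coding letters printed for higher genes, those of MYH9 hold the most G and C and those of TRIP11 the fewest. The 15 nuclear genes that fell had a median of 58.9% and were all over 50%, while all tested genes had a median of 47.3%. In quintiles of genes by GC content, low to high, the median log2 difference of the V5 IPs from the input was 1.57, 0.89, 0.13, -0.31 and -0.47. HEK293 cells over the input gave 1.51, 0.88, -0.03, -0.74 and -1.11 in the same quintiles, with the same input below both. Against HEK293 cells instead, the V5 medians ran the other way with GC content, at 0.06, 0.08, 0.18, 0.45 and 0.60. Against the HA IPs the V5 medians ran between -0.04 and 0.03. After a smooth GC trend was removed from each library, 16 genes rose against the input and 14 fell, in place of 85 and 20. TRIP11, MYH10, MYH9, PRKDC, HSP90AA1 and NCL remained called, with edgeR adjusted p between 1.2e-05 for MYH9 and 0.00061 for MYH10, HSP90AA1 and NCL. RHOT2 and GRN were no longer called (edgeR adjusted p = 0.129 and 0.213), with log2 differences of -3.07 in place of -3.58 for RHOT2 and -1.61 in place of -2.16 for GRN. ACTG1 and TUBG1 lost their calls as well (edgeR adjusted p = 0.4431 and 0.4198), as did PLD3, C1orf159, TOM1, HIST1H1C and RPL13. ACTB remained called (0.0063). Of genes that had risen, RPL5, EIF3E, EIF5B, CCT8, SEC62, U2SURP and HNRNPR were not called either. Their edgeR adjusted p ran from 0.133 for EIF5B to 0.749 for RPL5, while EIF2S2 remained called (0.0456). The part of GC content in the single differences was not tested further.

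Longer transcripts were also higher in the V5 IPs against the input and the HA IPs, and little so against HEK293 cells. In quintiles by exonic length, short to long, the median log2 difference from the input was -0.11, -0.05, 0.15, 0.54 and 1.18. Against the HA IPs it was -0.24, -0.15, -0.03, 0.14 and 0.45. HEK293 cells over the input gave -0.41 in the shortest quintile and 0.59 in the longest, with a Spearman's rho of 0.215. Against HEK293 cells the V5 medians were 0.30, 0.13, 0.20, 0.28 and 0.48, with a rho of 0.068 and 0.073 for the first and second V5 IPs. Over the 2162 genes, Spearman's rho between length and the log2 ratio to the input was 0.263 and 0.245 for the V5 IPs, and that with GC content was -0.511 and -0.507. These are descriptions across genes, which are not independent and share the same libraries.

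**Figure D4:**
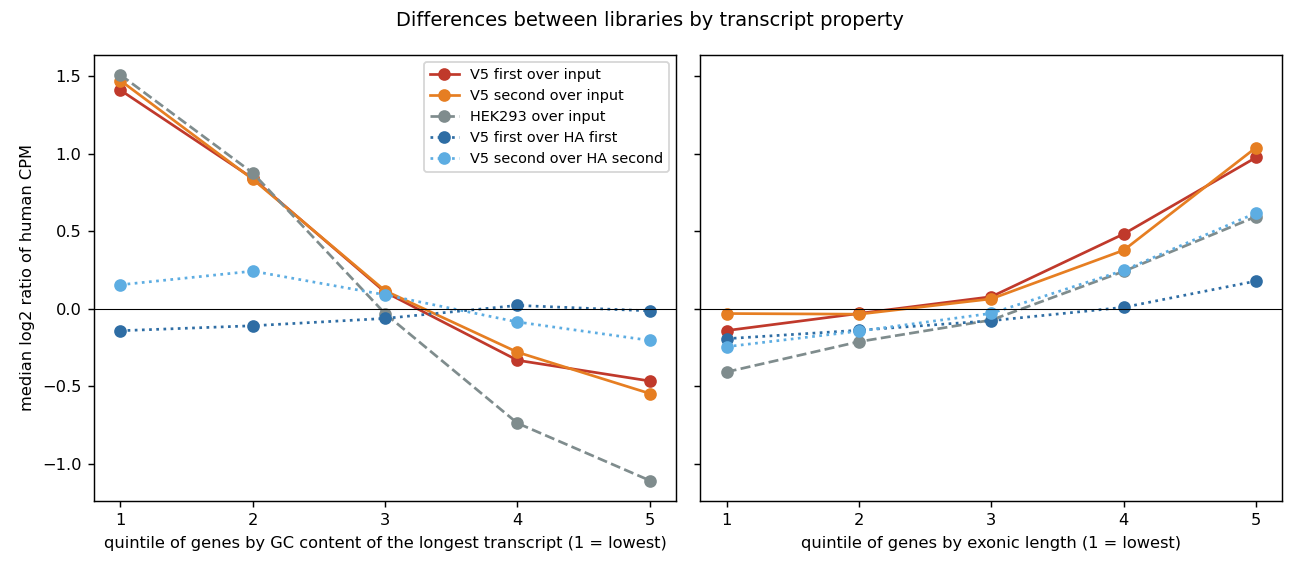
Median log2 ratio of human CPM between libraries in quintiles of 2162 human genes by GC content of the longest transcript (left) and by exonic length (right), 1 being the lowest, with 1 line per pair of libraries. The V5 and HEK293 lines over the input run down with GC content (HEK293 1.51 to -1.11), while the lines of V5 over HA IPs stay between -0.20 and 0.24 for GC content and climb with length.

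Mouse RNA gave some counts on human genes. The NIH3T3 monoculture had 511 counts on human genes. Scaled by mouse counts, this gives 0.384% and 0.545% of the human counts in the V5 IPs, against 0.0693% in the input. TNR (ENSG00000116147.16, chromosome 1, 175315194 to 175743770), tenascin R, a matrix protein of the nervous system, held 160 of those 511 counts. TNR had 168 and 266 counts in the V5 IPs, against 125 in the input, 20 and 55 in the HA IPs and 6 in HEK293 cells. The NIH3T3 level gives 155 counts expected in the first V5 IP (95% Poisson interval 132 to 181) and 140 in the second (119 to 163). The first V5 IP lay within its interval and the second above it. In the input 60.8 counts were expected on TNR and in the HA IPs 12.7 and 28.0, each below the number counted. Mouse reads on TNR may therefore remain after the expected ones are subtracted, which was not tested. With the expected mouse reads subtracted, TNR kept 13 and 126 counts in the V5 IPs, against 64 in the input. Its log2 difference against the input was then 1.82 ± 0.63 (SE; edgeR adjusted p = 0.120) and was not called, in place of 2.35 ± 0.48 (SE; edgeR adjusted p = 0.00030). The subtraction left 104 genes called against the input, 84 higher and 20 lower, in place of 105. The pseudogene AC246787.1 and VAMP7 had 16 and 11, and 13 and 2, counts in the V5 IPs, with 9.68 and 8.73, and 7.75 and 6.98, expected. For RPL19 the expected counts were 1.37% and 1.91% of the counted. RPL22 had 25 and 38 counts in the V5 IPs, with 4.84 and 4.36 expected.

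**Figure D5:**
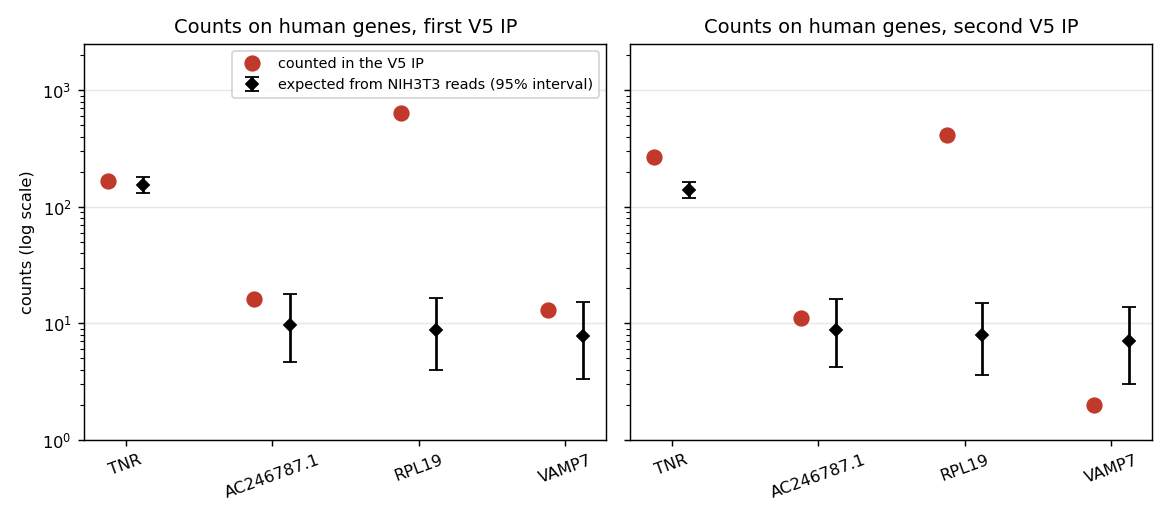
Counts on TNR, AC246787.1, RPL19 and VAMP7, 4 human genes with mouse reads, in the first (left) and second (right) V5 IPs (red points, log scale), beside the counts expected from the NIH3T3 monoculture with 95% Poisson intervals on its count (black). The TNR point of the first V5 IP lies within the expected 132 to 181, while RPL19 lies far above its expected count in both.

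The V5 IPs themselves differed in single genes. Of the 2162 genes with at least 50 human CPM, 1361 (63.0%) were within 2-fold between the first and second V5 IPs. The middle of the distribution of log2 ratios, first over second, ran between quartiles of -0.66 and 0.72, with a median of -0.03. MYH9, RPL13 and VIM were high in the first V5 IP, at 6.16, 5.81 and 7.83 times the second, and CIT and TRIP11 were high in the second. Of all human genes, 7844 had a count in at least 1 V5 IP and 3841 in both. 1 count stood for 7.76 human CPM in the first V5 IP and 12.2 in the second, against 3.57 in the input, which sets the resolution for scarce genes. When genes are scaled to all counts of both species instead, the lower human share weighs in. Of the 2636 genes tested with at least 10 V5 counts, 298 were then higher in both V5 IPs than in the input. That filter used the V5 counts themselves, so the number is a description and not a test of enrichment. Most of the 298 were not called higher against the input, and many had few input counts or none. Some gaps were small, as for PPP2R2A and DIMT1.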

How the data were processed

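RNA was measured in 7 libraries. Per the labels' protocols, RNA came from standard extracts or IPs, and cDNA was made with SMART-seq and sequenced after a Nextera DNA Flex preparation. The authors' files give raw counts per gene, made with featureCounts 1.5.2 over exons by gene, in pairs and without strand, per the file headers. Reads of overlapping genes therefore cannot be told apart. The submitters' processing notes also name bcl2fastq, Trim Galore, STAR 2.5.2, SAMtools and hg38. No mouse build is named in the sources used here. The deposited exonic length of each gene (another unit, in bases) came from the same files. All 58721 human identifiers matched GENCODE 29, which also gave transcripts and symbols.

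From the counts as deposited, human genes were tested with edgeR 4.0.16 in R 4.3.3 (quasi-likelihood, two-sided, Benjamini-Hochberg over 6244 genes, threshold 0.05). Library size was the human count, with no further factor. The fit held V5, HA, input and HEK293 libraries, and filterByExpr was run with a minimum count of 10 and total of 15. Folds against 0 used a floor of 3 counts. Ratios to the input and their counting intervals pooled the counts of both V5 IPs and leave out the spread between them. GC content came from each gene's longest transcript. DESeq2 1.42.0 was an alternative, as were other scalings, filters, sets of libraries, a replicate block, removal of mouse reads and of a GC trend. Named genes were up to 12 per direction by fitted difference with at least 50 human CPM, the 8 most abundant, up to 3 per list (2 if none was called), the 5 with most mouse reads, 5 per direction against HA, and RPL22 and RPL22L1. Other genes described were chosen after their values were seen. For 1 gene that met the rule, results are not reported here. The 17 gene lists and the comparison were chosen with earlier results of these data known. The procedure was tested on simulated data. Figures were drawn with matplotlib 3.10.9, and other steps ran in Python 3.11.15 with scipy 1.17.1 and pandas 2.3.3.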

Additional observations from a re-analysis of the deposited data

How the results depend on the processing

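Against the input, 105 genes were called in all, and no called named gene changed sign under the alternatives that kept the input as the reference. The count was 47 with TMM factors, 55 with no filter, 9 with a filter of 50 counts in 2 libraries, 55 with only the compared groups fitted, 30 after removal of the GC trend and 29 with HEK293 cells as the reference. It was 72 with DESeq2 size factors and 110 with DESeq2's Wald test. Leaving out 1 IP gave 0 to 42. Against the HA IPs, 38 were called, 23 with TMM factors, 16 with the filter of 50 counts, 11 with only the compared groups, and 7 to 27 without 1 IP. With HEK293 cells as the reference, log2 differences changed sign for PYCR1 (0.19), RPL7 (-0.35), RPL6 (-0.17), MALAT1 (-1.16), SEC62 (-0.074), EIF3E (-0.70), CCT8 (-0.42), U2SURP (-0.60) and HNRNPR (-0.21), none of them called, and the mitochondrial share differed by -5.44 points. With mitochondrial rRNA and tRNA left out it differed by -1.52 points from the input. The cause of these changes was not tested. With few human counts per V5 IP, small differences of scarce genes were not detectable.

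IP order as a replicate block gave 150 calls against the input (108 higher and 42 lower) and 57 against the HA IPs (40 and 17). First-minus-second differences of the V5 and HA IPs correlated at r = 0.163 over 1124 genes. The first IPs share lysate 1 and the second come from lysate 4 (V5) and lysate 5 (HA), so the numbers mark a shared lysate for 1 of 2 pairs only and were not taken to pair the samples.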
